A study of Homo sapiens and Mus musculus with 24 samples.

Results

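The genes described here are 44 human genes of DNA replication and deoxynucleotide synthesis, measured in LNCaP, a human prostate cancer cell line that carries an active androgen receptor. They were listed by symbol for their roles, with earlier results of these data known. All 44 were found among the 44564 gene names of the LNCaP table. By role they were 5 genes of deoxynucleotide supply, 7 MCM genes, 9 genes of origin licensing and helicase activation, 7 of polymerases and primase, 8 of the clamp, clamp loader, strand binding and lagging strand, 4 of entry into S phase, and 4 of the copying of methylation and chromatin. LNCaP cells with the genotype label WT were grown alone, with CCAFs or with CRPCCAFs, which are 2 kinds of cancer-associated fibroblast. Each culture received DMSO, the solvent, or enzalutamide at 1 μM, an antagonist of the androgen receptor, and was taken at day 7. This gave 6 groups of 2 libraries, which the labels call biological replicates. The labels spell out neither CCAF nor CRPCCAF and do not give the species of the cocultured fibroblasts. The fibroblasts that the study sequenced on their own were isolated from PtenPC-/-; Trp53PC-/- mice. The labels do not say how LNCaP cells were parted from fibroblasts before sequencing.

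Before S phase, the origin recognition complex, CDC6 and CDT1 load the ring-shaped helicase made of MCM2 to MCM7 onto DNA. CDC45 and the GINS complex then join the ring to form the active helicase, primase and DNA polymerase alpha start new strands, and polymerases delta and epsilon extend them on the sliding clamp PCNA. Ribonucleotide reductase, thymidylate synthase and thymidine kinase supply the deoxynucleotides. Transcription factors of the E2F family, released from the RB protein when cyclin-dependent kinases phosphorylate it, activate many of these genes, and androgen receptor signalling is known to drive LNCaP cells into S phase.

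Levels are given in RPKM, by its name reads scaled by gene length and library size. The gene lengths used are not stated, and comparisons of level between genes rest on them. The whole-read steps in the values correspond to 17850431 to 22187880 reads per library, and the members with the fewest were POLE2, with 31 to 227 reads, and E2F2, with 26 to 387. All 14 luminal prostate markers were at 1 RPKM or more in every library. Of 25 fibroblast markers, 15 stayed under 1 RPKM in all 12 libraries, the highest of these at 0.665 RPKM (LUM), and COL1A2, DCN, FAP, THY1 and POSTN were at 0 in some libraries. The summed level of the 25 was 89.7 and 92.7 RPKM alone under DMSO, 149 and 150 alone under enzalutamide, 126 and 132 with CCAFs under DMSO, 142 in each library with CCAFs under enzalutamide, 204 and 213 with CRPCCAFs under DMSO, and 291 and 300 with CRPCCAFs under enzalutamide. FN1, at 38.1 to 187 RPKM over the libraries, COL6A1, at 28.0 to 59.4 RPKM, and COL6A2, at 7.31 to 21.8 RPKM, reached the highest levels. Differences are on the log2(RPKM + 1) scale, which understates the change of low genes, and were tested with limma over all 16042 genes that reached 1 RPKM in at least 2 libraries. A gene is said to have risen or fallen only where its Benjamini-Hochberg adjusted two-sided p was under 0.05. In RNA of whole cultures, fewer cells in S phase and less of a transcript in each cell cannot be told apart.

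The promoters are shown first because E2F factors are known to activate many of these genes. E2F binding was not measured here. RefSeq start sites on build GRCh38.p14 were found for 39 of the 44 genes, in 53 windows that run from 250 bases before to 50 bases after the start. An E2F-type octamer (TTTGGCGC, TTTCCCGC, TTTGCCGC or TTTCGCGC, on either strand, matches allowed to overlap) was found in 23 of the 53 windows, or 43.4%, against 3.31% of all 35116 RefSeq windows of that length. By gene, 22 of 39 members (56.4%) held an octamer against 3.99% of 27305 genes. A CCAAT box, the site of NF-Y, was in 50.9% of the member windows and 34.6% of all windows. The 200 bases before the start are printed for 5 members, with octamers in capitals. E2F1 on chr20:33686386-33686585, minus strand, MCM6 on chr2:135876444-135876643, minus strand, and PCNA on chr20:5126623-5126822, minus strand, which is 1 of its 2 windows, hold octamers and fell under enzalutamide. The other PCNA window holds no octamer. POLE on chr12:132687343-132687542, minus strand, holds an octamer and was the 1 member that did not pass the test in cells grown alone. RRM2 on chr2:10122539-10122738, plus strand, holds no octamer in either of its 2 windows and had the largest log2 difference in cells grown alone.
E2F1: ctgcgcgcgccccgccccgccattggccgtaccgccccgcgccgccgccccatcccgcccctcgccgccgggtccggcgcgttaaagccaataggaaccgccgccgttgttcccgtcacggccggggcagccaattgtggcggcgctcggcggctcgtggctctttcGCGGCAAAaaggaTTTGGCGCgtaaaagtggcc
MCM6: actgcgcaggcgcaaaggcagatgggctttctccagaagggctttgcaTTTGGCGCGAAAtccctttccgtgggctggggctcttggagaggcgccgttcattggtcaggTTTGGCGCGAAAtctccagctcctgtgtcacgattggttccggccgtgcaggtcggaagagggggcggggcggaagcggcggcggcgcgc
PCNA: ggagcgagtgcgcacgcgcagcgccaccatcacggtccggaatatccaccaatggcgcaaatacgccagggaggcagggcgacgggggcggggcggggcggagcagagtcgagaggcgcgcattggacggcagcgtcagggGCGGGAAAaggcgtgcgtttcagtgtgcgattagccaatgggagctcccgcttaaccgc
POLE: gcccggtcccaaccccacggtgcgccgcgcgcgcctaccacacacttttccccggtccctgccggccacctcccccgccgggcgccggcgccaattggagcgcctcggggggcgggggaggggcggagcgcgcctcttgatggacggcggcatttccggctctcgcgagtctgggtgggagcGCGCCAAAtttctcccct
RRM2: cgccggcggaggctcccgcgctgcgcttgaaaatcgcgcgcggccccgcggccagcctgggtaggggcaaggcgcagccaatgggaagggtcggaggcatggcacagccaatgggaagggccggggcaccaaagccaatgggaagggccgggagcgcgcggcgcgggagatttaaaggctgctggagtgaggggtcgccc
The 4 matches in MCM6 lie in 2 runs, each matched on both strands. In these bases E2F1, PCNA and RRM2 have 3 CCAAT boxes each, and MCM6 and POLE have 2 each. Members with and without an octamer had median log2 differences in enzalutamide alone of -1.62 over 22 genes and -1.60 over 17. With CCAFs the medians were -0.93 and -0.92, with CRPCCAFs -1.69 and -1.44, and for CCAFs against cells alone under enzalutamide 0.79 and 0.56. A match is only a string of letters, and its absence says only that those letters are not in the window.

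Enzalutamide in LNCaP cells grown alone lowered nearly the whole set. The summed level of the 44 genes was 1256 and 1275 RPKM in the DMSO libraries and 340 and 353 RPKM in the enzalutamide libraries. With limma, 43 of 44 members fell and none rose, where 25.3% of all genes tested fell and 30.1% rose. The median log2 difference of the members was -1.63, and that of all genes 0.04. The median member kept 27.1% of its DMSO level, with a range from 8.81% for RRM2 to 94.6% for POLE. All 44 members had both enzalutamide libraries below both DMSO libraries, as did 35.0% of all genes tested.

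The deoxynucleotide supply genes all fell (5 of 5, median log2 difference -1.79). RRM2, the small subunit of ribonucleotide reductase that is made anew in each S phase, was at 66.6 and 69.4 RPKM under DMSO and 5.68 and 6.30 RPKM under enzalutamide. Its enzalutamide libraries lie more than 10-fold below the DMSO ones, with a log2 difference of -3.31 ± 0.064 (SE, limma adjusted p = 8.48e-10). RRM1, the large subunit of the same enzyme, kept 38.6% of its level. TYMS, which makes thymidylate, kept 16.4%, and TK1, which salvages thymidine, kept 28.0%. DUT, the dUTPase that keeps uracil out of DNA, changed least of the 5, from 42.9 and 38.6 to 23.5 and 24.2 RPKM (log2 difference -0.75 ± 0.060, SE, limma adjusted p = 4.72e-06).

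The replicative helicase and the proteins that load and start it had the lowest medians of the 7 roles. All 7 MCM genes fell, with a median log2 difference of -2.07, as did all 9 licensing and activation genes, with -2.12. MCM10, which binds the helicase as forks start, was at 11.6 and 11.95 RPKM under DMSO and 1.45 and 1.28 RPKM under enzalutamide, and MCM6, a ring subunit, went from 22.8 and 23.5 to 8.76 and 9.37 RPKM. These were the largest and smallest changes among the MCM genes, -2.43 ± 0.062 and -1.26 ± 0.071 on the log2 scale (SE). CDC45, a part of the active helicase, went from 18.6 and 20.8 to 1.75 and 2.10 RPKM and kept 9.77% of its level. CDC6 kept 13.2% and ORC6 12.6%, both of them loading factors. On the log2 scale GINS3 changed least in its role, from 8.58 and 9.36 to 2.68 and 2.92 RPKM. By share, CDT1, another loading factor, kept the most of the role at 33.1%, and GINS3 kept 31.2%. GINS1, GINS2 and GINS4, the other subunits of the 4-part GINS complex, kept 20.8%, 17.9% and 19.5%.

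Among the polymerases and primase, 6 of 7 fell, with a median log2 difference of -1.28. PRIM1, the catalytic subunit of primase, went from 21.5 and 19.7 to 4.12 and 4.03 RPKM, and PRIM2, the regulatory subunit, kept 32.3%. POLA1 and POLA2, subunits of polymerase alpha, kept 39.5% and 28.6%, and POLD1, the catalytic subunit of polymerase delta, kept 36.4%. POLE, the catalytic subunit of polymerase epsilon, was at 6.72 and 6.62 RPKM under DMSO and 6.25 and 6.38 RPKM under enzalutamide. Its libraries do not overlap, but the log2 difference was -0.07 (95% interval -0.19 to 0.05, limma adjusted p = 0.289). POLE2, the second subunit of the same polymerase, fell to 30.9% of its DMSO level.

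The 8 genes of the clamp and lagging strand all fell, with a median log2 difference of -1.51. PCNA, the clamp and the most abundant member at 120 and 119 RPKM under DMSO, was at 30.7 RPKM in each enzalutamide library. FEN1, the nuclease that trims Okazaki fragments, had the largest change of the role, from 53.2 and 50.6 to 10.6 and 9.74 RPKM. RPA3, the smallest subunit of the strand-binding protein RPA, had the smallest, from 19.6 and 18.1 to 9.60 and 10.8 RPKM. Of the clamp loader, RFC3 kept 21.8%, RFC4 30.3%, RFC5 35.1% and RFC2 45.0%.

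All 4 genes of S phase entry fell, with a median log2 difference of -1.32, but their sizes differed widely. E2F1 went from 23.1 and 24.4 to 3.50 and 4.06 RPKM, a log2 difference of -2.37 ± 0.071 (SE). E2F2, low throughout, went from 3.12 and 3.38 to 0.354 and 0.554 RPKM. CCNE1, a cyclin E that partners CDK2, was at 9.29 and 8.73 RPKM under DMSO and 3.92 and 5.27 RPKM under enzalutamide, replicates further apart than those of E2F1. CCNE2, the other cyclin E, kept 43.8%. Of the genes that copy methylation and chromatin, all 4 fell, with a median of -1.20. UHRF1, which brings the maintenance methyltransferase DNMT1 to new DNA, went from 10.6 and 10.5 to 1.69 and 1.70 RPKM. DNMT1 kept 44.7%, and CHAF1A and CHAF1B, subunits of a histone chaperone that acts behind the fork, kept 38.7% and 53.7%.

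**Figure D1:**
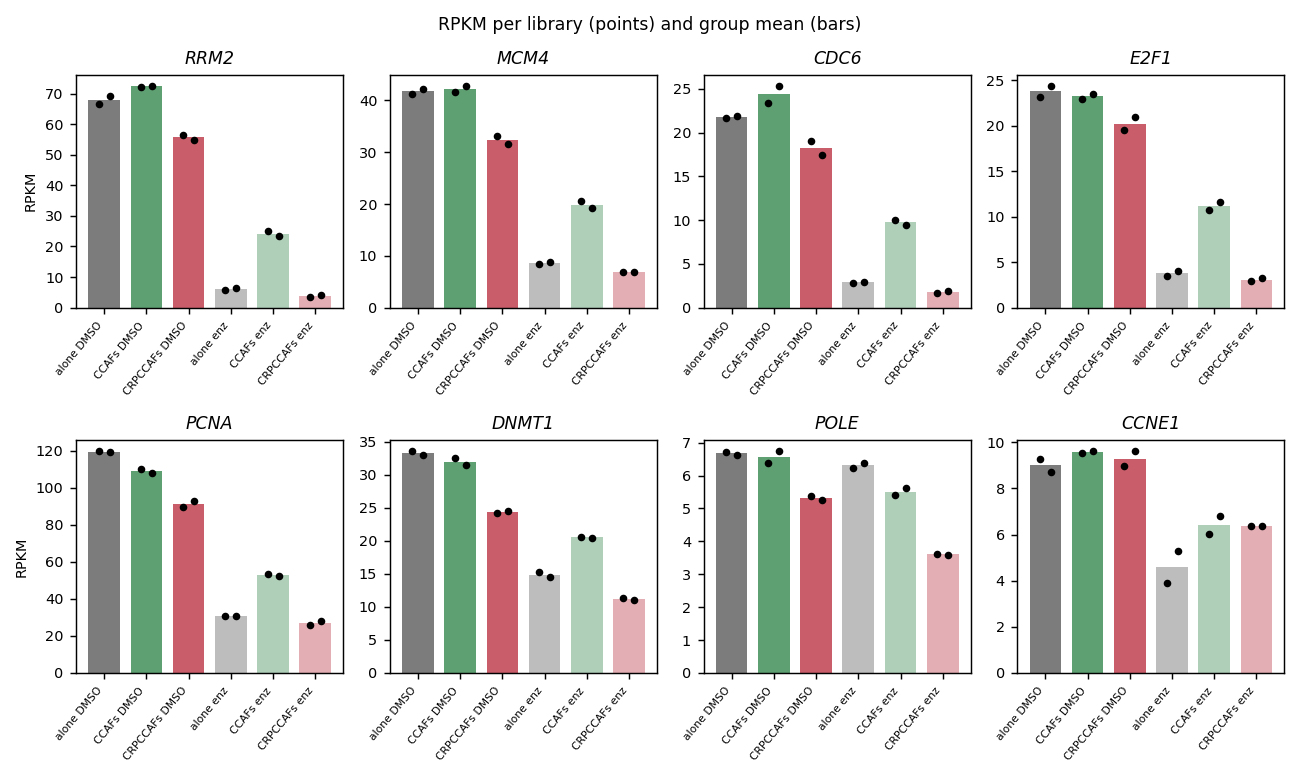
RPKM of 8 members in the 6 groups, each panel on its own axis from 0, with points for the 2 libraries and bars for their mean (darker under DMSO, paler under enzalutamide, abbreviated enz). RRM2, MCM4, CDC6, E2F1 and PCNA are low in enzalutamide alone and with CRPCCAFs and in between with CCAFs, while POLE stays near its DMSO level alone.

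With CCAFs in the culture, enzalutamide lowered the same kinds of gene by less. The summed level of the members was 1206 and 1208 RPKM under DMSO and 618 and 623 RPKM under enzalutamide. All 44 members fell by the limma test and none rose, where 21.5% of all genes fell and 26.8% rose. Over the members the median log2 difference was -0.90 against 0.05 over all genes, and the median member kept 49.9% of its DMSO level, from 33.5% for RRM2 to 84.0% for POLE. RRM2 was at 72.2 and 72.6 RPKM under DMSO and 25.1 and 23.4 RPKM under enzalutamide. By role, the median log2 difference was -1.05 for licensing and activation, -0.97 for the MCM genes, -0.93 for S phase entry, -0.82 for the clamp and lagging strand, -0.73 for polymerases and primase, -0.68 for methylation and chromatin and -0.67 for deoxynucleotide supply. Without the second DMSO library or the first enzalutamide library of this coculture, POLE no longer passed (limma adjusted p = 0.0614 and 0.0511).

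With CRPCCAFs the changes were about as large as in cells grown alone. The summed level was 976 and 1003 RPKM under DMSO and 285 and 287 RPKM under enzalutamide. All 44 members fell and none rose, where 24.7% of all genes fell and 30.5% rose. Over the members it was -1.65 at the median, on the log2 scale, against 0.05 over all genes, and the median member kept 27.1%, from 6.99% for RRM2 to 68.7% for CCNE1. RRM2 was at 56.5 and 54.9 RPKM under DMSO and 3.61 and 4.18 RPKM under enzalutamide. The roles again ran from licensing and activation, -2.01, and the MCM genes, -1.87, to methylation and chromatin, -1.23, and polymerases and primase, -1.27.

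**Figure D2:**
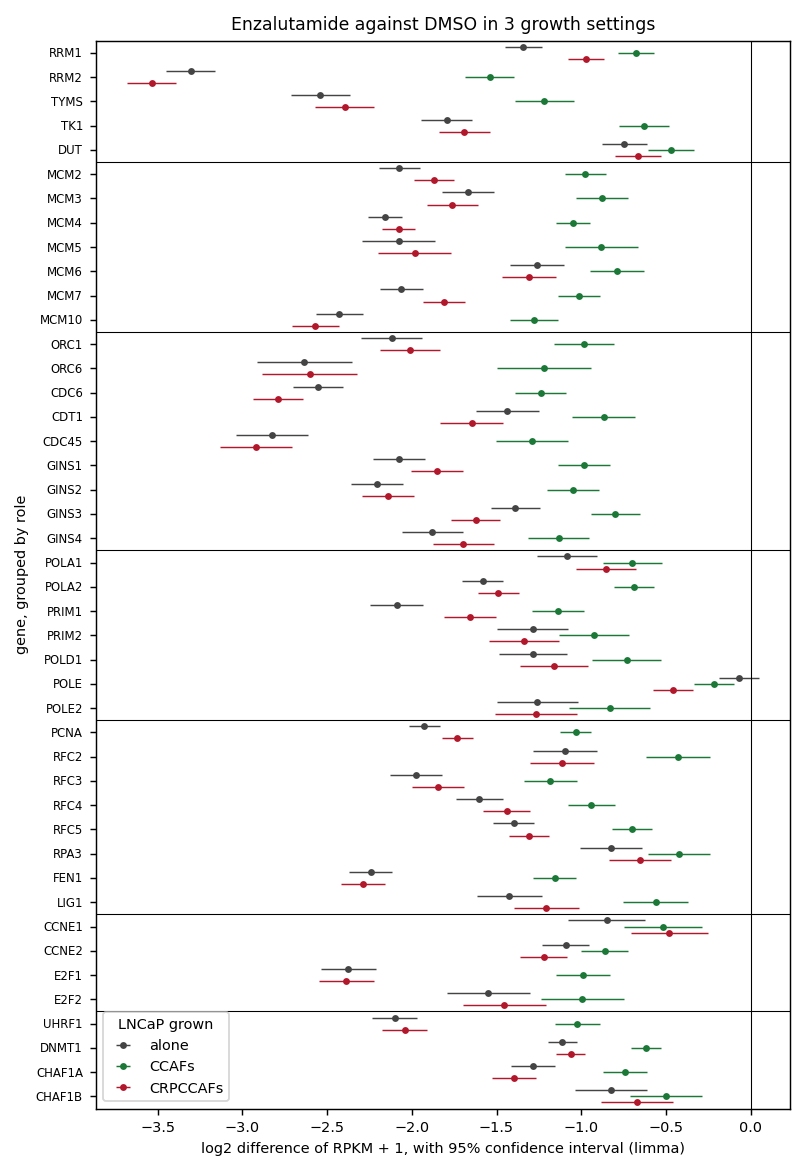
Log2 difference of RPKM + 1 between enzalutamide and DMSO for each member, with its 95% confidence interval, in LNCaP cells alone (grey), with CCAFs (green) and with CRPCCAFs (red); horizontal lines part the roles. The CCAF points lie nearer to 0 than the other points for most genes, and POLE and CCNE1 depart from that order.

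The difference between the enzalutamide effect with CCAFs and that in cells alone was tested itself. It was above 0 for 34 of 44 members and below 0 for none, where 4.56% of all genes passed upward and 2.45% downward, and the median was 0.79 against 0.01 over all genes. RRM2 had the largest difference of effects, 1.76 ± 0.090 (SE, limma adjusted p = 1.76e-05). MCM4 followed in order of p with 1.11 ± 0.062, and PCNA with 0.89 ± 0.058. All 7 MCM genes and all 9 licensing and activation genes passed, and 7 of 8 clamp and lagging strand genes, 4 of 5 deoxynucleotide supply genes and 3 of 4 methylation and chromatin genes. Only 3 of 7 polymerase and primase genes (POLA2, PRIM1 and POLD1) and 1 of 4 S phase entry genes (E2F1) passed. The 10 members that did not pass were DUT, POLA1, PRIM2, POLE, POLE2, RPA3, CCNE1, CCNE2, E2F2 and CHAF1B. Of these, E2F2 was low, where the log2(RPKM + 1) scale understates a change, and it kept 14.0% of its DMSO level alone and 35.9% with CCAFs. For CCNE2 the difference was 0.23 (95% interval 0.03 to 0.43), and for POLE, the single one below 0, -0.15 (-0.31 to 0.02).

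Between the 2 cocultures, the enzalutamide effect with CRPCCAFs was further below 0 than that with CCAFs for 34 of 44 members, and above it for none, where 4.07% of all genes passed downward and 2.38% upward. The median was -0.69 against -0.02 over all genes. RRM2 had -1.99 ± 0.090, CDC6 -1.55 ± 0.094 and MCM4 -1.03 ± 0.062 (SE). CCNE1, the single member above 0, had 0.04 (95% interval -0.29 to 0.36). Against cells alone, the effect with CRPCCAFs differed for 3 members only by the limma test. It was lower for POLE, -0.39 ± 0.074, and higher for RRM1, 0.37 ± 0.067, and PRIM1, 0.43 ± 0.097. That is 1 member lower where 3.33% of all genes passed downward and 2 higher where 3.68% passed upward, with medians of 0.09 over the members and -0.0044 over all genes. RRM2 at -0.23 (95% interval -0.44 to -0.03), GINS3 at -0.23 (-0.44 to -0.03) and PCNA at 0.19 (0.06 to 0.33) did not pass after adjustment. PRIM1 lost its call in 5 of the 8 fits that leave out 1 library (both alone enzalutamide libraries, the first alone DMSO library, the second CRPCCAF DMSO library and the first CRPCCAF enzalutamide library), with adjusted p from 0.0196 to 0.0983, and also with no filter on low values (0.0623) and when only the groups compared were fitted (0.0714). POLE lost its call in 3 of 8 (the second library of alone DMSO, alone enzalutamide and CRPCCAF enzalutamide), with 0.0330 to 0.0569. These 3 tests share libraries, so their values are given side by side and not as independent results.

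Under DMSO, the members with CCAFs were near their level in cells alone. The comparisons of both cocultures with cells alone share the alone libraries. The median member was at 96.5% of that level, from 82.7% for LIG1 to 112% for UHRF1. RRM1 was the single member that fell, and none rose, where 3.99% of all genes fell and 5.47% rose. The median log2 difference was -0.05 against -0.01 over all genes. RRM1 was at 72.0 and 66.6 RPKM alone and 58.5 and 59.8 RPKM with CCAFs, a log2 difference of -0.22 ± 0.048 (SE, limma adjusted p = 0.0183). That call was lost without the first alone DMSO library or either CCAF DMSO library, each of which left 0 members called. PCNA, at 110 and 108 RPKM with CCAFs, had -0.13 (95% interval -0.22 to -0.04, limma adjusted p = 0.0834), and RFC4, at 26.6 and 24.6 RPKM alone and 22.0 and 22.7 RPKM with CCAFs, had -0.19 (adjusted p = 0.0909). The 3 members with the smallest p among those above 0 were UHRF1, from 10.6 and 10.5 to 11.6 and 12.1 RPKM, CDC6, from 21.7 and 21.8 to 23.4 and 25.4 RPKM, and GINS2, from 20.5 and 20.6 to 21.3 and 23.5 RPKM. Their log2 differences were 0.15, 0.15 and 0.12, with limma adjusted p of 0.152, 0.188 and 0.325. The fibroblast marker sum in these CCAF libraries was 126 and 132 RPKM, against 89.7 and 92.7 RPKM in cells alone. Of that sum, FN1 was at 76.0 and 71.4 RPKM with CCAFs and 38.1 and 40.5 RPKM in cells alone. The part of the markers in the result was not tested.

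Most of the set was lower with CRPCCAFs under DMSO than in cells alone. The median member was at 78.3% of its level in cells alone, and 36 of 44 members fell while none rose, where 16.3% of all genes fell and 14.3% rose. The median log2 difference was -0.32 against -0.02 over all genes. All 5 deoxynucleotide supply genes, all 7 MCM genes and all 8 clamp and lagging strand genes fell, with medians of -0.38, -0.31 and -0.34. DNMT1 had the smallest p, from 33.6 and 33.1 RPKM alone to 24.2 and 24.5 RPKM, a log2 difference of -0.44 ± 0.039 (SE, limma adjusted p = 3.48e-05). CCNE2 went from 16.9 and 17.1 to 11.4 and 10.4 RPKM, the lowest share of any member at 64.3%, and PCNA went to 89.9 and 92.8 RPKM. CCNE1, the other cyclin E gene, was at 8.95 and 9.62 RPKM, within its range in cells alone or just above it, with a log2 difference of 0.04 (95% interval -0.19 to 0.27). The other 7 members that did not pass were ORC1, ORC6, GINS2, PRIM2, POLD1, E2F2 and UHRF1. Without the first alone DMSO library fewer members fell, and fewer of all genes too. The summed fibroblast markers were higher in these CRPCCAF libraries (204 and 213 RPKM) than in cells alone (89.7 and 92.7 RPKM). Of that sum, FN1 was at 142 and 129 RPKM with CRPCCAFs and 38.1 and 40.5 RPKM in cells alone. The sum was also higher in cells alone under enzalutamide, at 149 and 150 RPKM. The part of these markers in the result was not tested.

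Set directly against CCAFs under DMSO, CRPCCAFs had lower levels of 23 of 44 members and higher levels of none, where 6.41% of all genes were lower and 7.03% higher. The median difference was -0.27 on the log2 scale against -0.02 over all genes. CCNE2, at 16.9 and 17.6 RPKM with CCAFs, differed by -0.61 ± 0.062, DNMT1, at 32.5 and 31.5 RPKM, by -0.38 ± 0.039, and MCM4, at 41.6 and 42.9 RPKM with CCAFs and 33.2 and 31.6 RPKM with CRPCCAFs, by -0.37 ± 0.044 (SE). These 3 had no overlap between groups. Both CRPCCAF libraries lay below both CCAF libraries for 43 of the 44 members, CCNE1 being the exception, and for 29.7% of all genes tested. When only these 2 groups were fitted, 17 members were lower, and 247 of all 14635 genes were lower against 1029 of 16042 in the main fit. In each fit that left out 1 library of these groups, fewer members were lower, and fewer of all genes too.

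Under enzalutamide, cultures with CCAFs kept higher levels than cells alone. Of the members, 41 of 44 were higher and none lower by the limma test, where 11.9% of all genes were higher and 7.51% lower. The median log2 difference was 0.79 against 0.01 over all genes, and the median member was 1.97-fold its level in cells alone, up to 4.05-fold for RRM2. MCM4 was at 8.43 and 8.74 RPKM alone and 20.5 and 19.3 RPKM with CCAFs, a log2 difference of 1.12 ± 0.044 (SE, limma adjusted p = 3.59e-07). CDC6 was at 2.79 and 2.96 RPKM alone and 10.1 and 9.42 RPKM with CCAFs, which is 3.39-fold. By role the median ran from 1.13 for licensing and activation, 1.04 for the MCM genes and 1.02 for deoxynucleotide supply to 0.47 for methylation and chromatin and 0.42 for polymerases and primase. DUT, CHAF1B and POLE did not pass. Both CCAF libraries lay above both libraries of cells alone for 42 of 44 members and for 32.8% of all genes tested. They lay below for 1 member, POLE, and for 27.6% of all genes. POLE, at 5.39 and 5.63 RPKM with CCAFs, had a log2 difference of -0.17 (95% interval -0.29 to -0.05, limma adjusted p = 0.0527). Under median-of-ratios scaling of the libraries its adjusted p was 0.0414. Every mean with CCAFs under enzalutamide lay below all 3 DMSO means, apart from that of POLE, which lay above its mean with CRPCCAFs under DMSO. The fibroblast marker sum in these libraries (142 RPKM) was below that in cells alone under enzalutamide (149 and 150 RPKM). Of that sum, FN1 was at 56.4 and 56.2 RPKM with CCAFs and 51.7 and 48.9 RPKM in cells alone. COL6A1 was at 48.8 and 48.3 RPKM with CCAFs and 57.8 and 59.4 RPKM in cells alone. The part of the markers in the result was not tested.

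Under enzalutamide, CRPCCAFs went with lower levels than cells alone for 27 of 44 members and a higher level for 1, CCNE1, where 19.6% of all genes were lower and 16.5% higher. On the log2 scale the median difference was -0.25 against -0.03 over all genes, and the median member was 0.808-fold its level in cells alone. POLE had the smallest p, at 3.62 and 3.59 RPKM with CRPCCAFs against 6.25 and 6.38 RPKM alone, a log2 difference of -0.67 ± 0.052 (SE, limma adjusted p = 1.03e-05). CCNE2, at 3.98 and 4.26 RPKM, had -0.72 ± 0.062, and DNMT1, at 11.3 and 11.0 RPKM, had -0.39 ± 0.039. CCNE1 was at 6.37 RPKM in each CRPCCAF library against 3.92 and 5.27 RPKM alone, a log2 difference of 0.41 ± 0.10 (SE, limma adjusted p = 0.0116). That call was lost when only the 2 groups were fitted (limma adjusted p = 0.0507), and without the first alone enzalutamide library or either CRPCCAF enzalutamide library (0.0624, 0.0512 and 0.0502). PRIM1, at 5.01 and 4.32 RPKM, had 0.16 (95% interval 0.0013 to 0.31), and GINS2, at 3.70 and 3.67 RPKM, 0.0019 (-0.15 to 0.15). Neither passed, and the sign of GINS2 was negative under median-of-ratios scaling. The fibroblast marker sum was highest in these libraries (291 and 300 RPKM, against 149 and 150 RPKM in cells alone), FN1 making up most of it, and its part in the result was not tested.

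Between the 2 kinds of fibroblast culture, the gap was wider under enzalutamide than under DMSO for the 34 members that passed the test of that difference. CRPCCAF cultures were lower than CCAF cultures for 43 of 44 members and higher for none, where 18.5% of all genes were lower and 13.9% higher, with medians of -0.98 and -0.02. RRM2 differed by -2.37 ± 0.064, CDC6, at 1.67 and 1.90 RPKM with CRPCCAFs, by -1.95 ± 0.066, and MCM4, at 6.94 and 6.87 RPKM with CRPCCAFs, by -1.40 ± 0.044 (SE). CCNE1 differed by -0.0043 (95% interval -0.23 to 0.23).

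**Figure D3:**
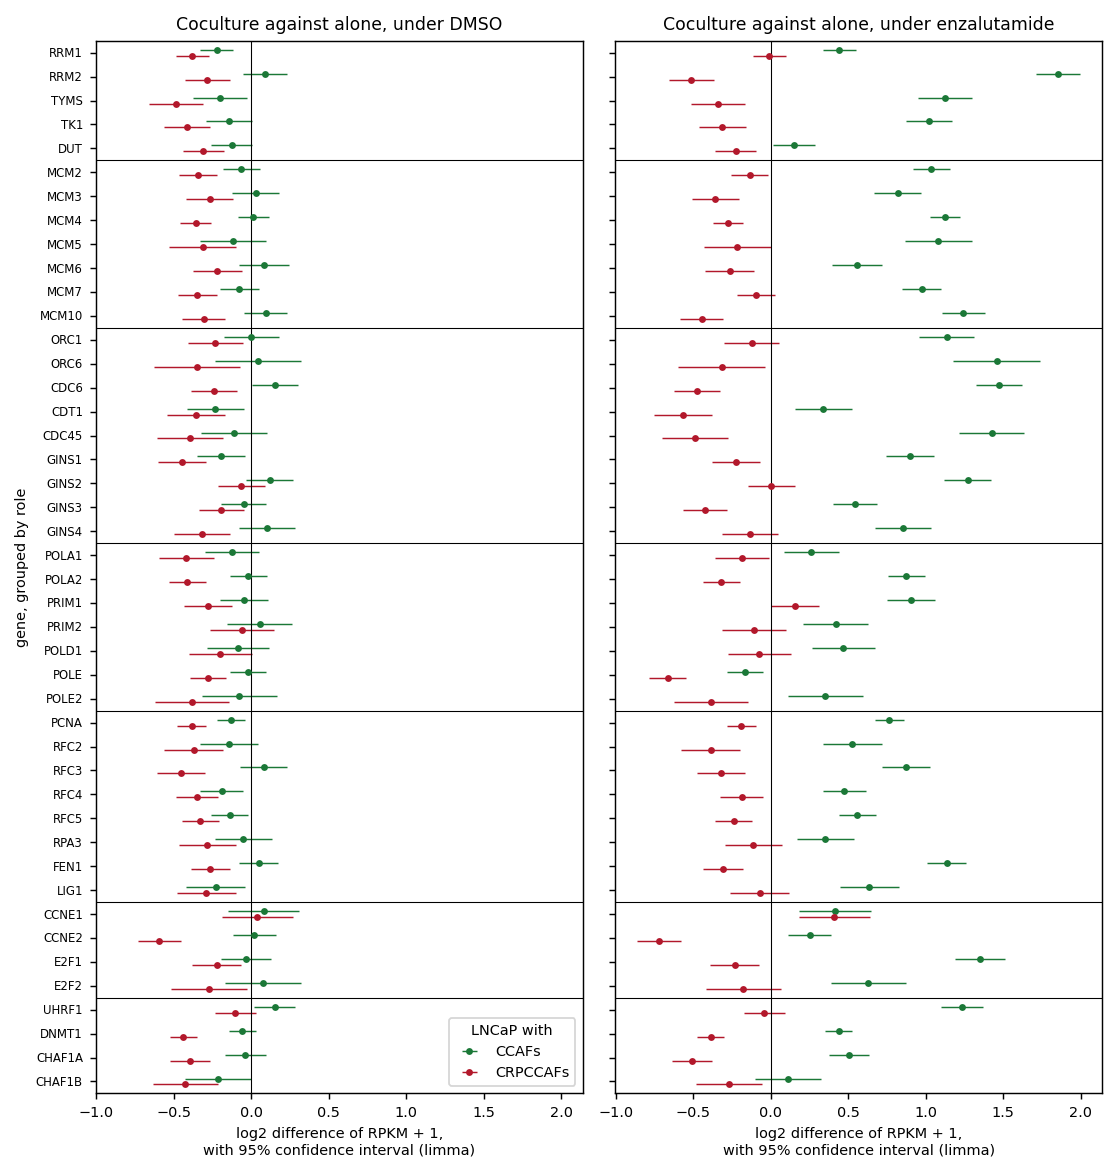
Log2 difference of RPKM + 1 between each coculture and cells grown alone, with 95% confidence interval, under DMSO (left) and enzalutamide (right), on 1 shared axis; green is CCAFs and red CRPCCAFs. Under DMSO the green points sit around 0 and most red points below it, and under enzalutamide most green points lie above 0 and most red points below.

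Across the 6 groups, the order of the means was shared by most of the set. In 25 members it was cells alone, CCAFs and CRPCCAFs under DMSO, then CCAFs, cells alone and CRPCCAFs under enzalutamide, and in 15 more it was the same with the first pair exchanged. Between that pair, the limma test passed for 1 of the 44 members, RRM1. The lowest mean was in CRPCCAFs under enzalutamide for 41 members and in cells alone under enzalutamide for GINS2, PRIM1 and CCNE1. The share of all genes with these orders or this lowest group was not counted, so how particular they are to the set is not known. POLE departed most: its mean in cells alone under enzalutamide lay above those of CCAFs under enzalutamide and CRPCCAFs under DMSO.

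**Figure D4:**
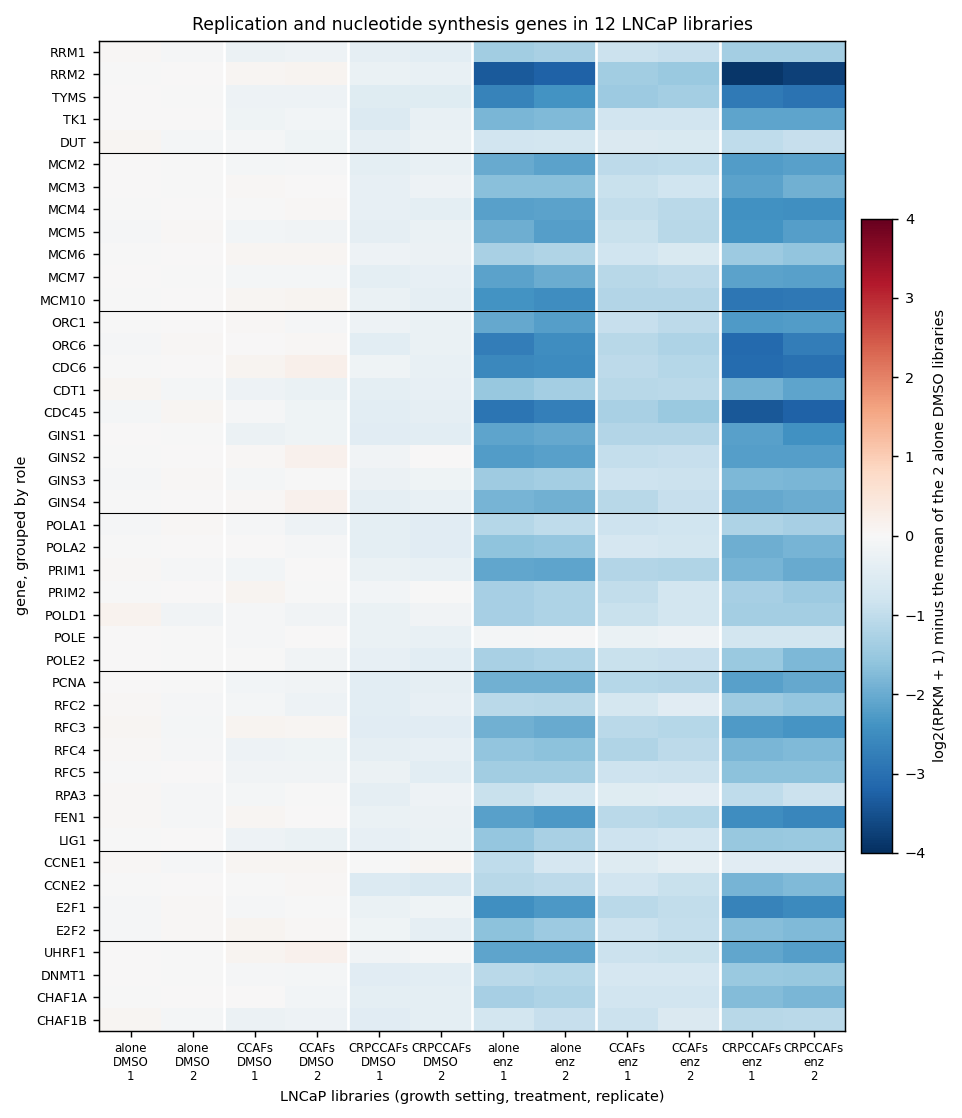
Each row is a member, each column a library, and the colour is log2(RPKM + 1) minus the mean of the 2 DMSO libraries of cells alone; lines part the roles. The enzalutamide columns of cells alone and CRPCCAFs are the darkest blue, the CCAF enzalutamide columns are paler, and the POLE row is the palest in cells alone under enzalutamide.

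Genes of the same processes outside the set were counted from lists chosen for their function, with earlier results of these data known. The counts therefore describe these lists and are not an independent test. Of 32 other replication factors, 27 fell and 2 rose in cells alone under enzalutamide, with a median log2 difference of -1.01. Of all genes tested, 25.3% fell and 30.1% rose, against which the counts of this and the next 2 lists can be read. The 3 with the smallest p that fell were TOP2A, the topoisomerase of dividing cells, from 39.7 and 41.2 to 7.17 and 7.67 RPKM, ASF1B, a histone chaperone, from 34.6 and 32.7 to 4.54 and 4.44 RPKM, and CLSPN, a checkpoint protein at the fork, from 6.14 and 6.44 to 0.877 and 0.832 RPKM. TOP1, the general topoisomerase, rose from 63.2 and 65.7 to 83.8 and 81.8 RPKM and ORC4, an origin subunit, from 4.95 and 5.54 to 7.90 and 8.26 RPKM, while ORC3, at 3.66 and 4.63 against 4.70 and 5.11 RPKM, did not pass. ORC1 and ORC6, the 2 origin subunits in the set, fell to 14.8% and 12.6% of their level.

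Of 30 other genes of nucleotide metabolism, 26 fell and 2 rose in cells alone under enzalutamide, with a median log2 difference of -0.81. MTHFD1, a folate enzyme, went from 58.2 and 59.5 to 29.1 and 28.8 RPKM. PAICS, an enzyme of purine synthesis, went from 151 and 148 to 81.4 and 78.7 RPKM. RRM2B, the p53-inducible small subunit of ribonucleotide reductase, rose from 23.3 and 24.6 to 28.9 and 28.8 RPKM, opposite in sign to RRM2, and SAMHD1, which degrades deoxynucleotides, rose from 16.6 and 17.0 to 22.5 and 20.1 RPKM. TK2, the mitochondrial thymidine kinase, was at 8.16 and 7.65 against 8.54 and 9.29 RPKM and did not pass.

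Of 28 regulators of E2F and RB that were tested, 22 fell and 4 rose in cells alone under enzalutamide, with a median of -0.47. The 3 with the smallest p that fell were MYC, a growth regulator, from 90.6 and 84.6 to 16.8 and 16.9 RPKM, CCNA2, the S phase cyclin, from 33.1 and 32.2 to 5.61 and 5.07 RPKM, and CDK2, the kinase that cyclins E and A activate, from 37.8 and 38.4 to 13.2 and 13.0 RPKM. RBL2, which encodes p130, an RB relative of resting cells, rose from 26.4 and 26.7 to 52.4 and 51.8 RPKM, and CDKN1B, which encodes the CDK2 inhibitor p27, from 38.1 and 36.4 to 43.0 and 44.9 RPKM. With CRPCCAFs under enzalutamide CDKN1B was at 92.05 and 95.6 RPKM, a value chosen after it was seen. It was at 54.2 and 53.25 RPKM with CRPCCAFs under DMSO, and at 42.5 and 40.6 RPKM with CCAFs under enzalutamide. Other CDK inhibitor genes of the list, also chosen after they were seen, went both ways under enzalutamide. CDKN1A was at 86.9 and 87.5 RPKM alone and 189 and 190 RPKM with CRPCCAFs. CDKN1C was at 1.16 and 1.54 RPKM alone and 3.56 and 3.93 RPKM with CRPCCAFs. CDKN2C was at 5.88 and 6.13 RPKM alone and 2.98 and 3.14 RPKM with CRPCCAFs. Of the 28 regulators, 5 were higher and 6 lower with CRPCCAFs than in cells alone under enzalutamide, where 16.5% of all genes were higher and 19.6% lower. A link of CDKN1B or the other CDK inhibitor genes to the members was not tested. CCND1, at 98.3 and 102 against 107 and 107 RPKM, passed the test but not under median-of-ratios scaling (limma adjusted p = 0.235), when only the 2 groups were fitted (0.0721), or without the first alone DMSO library or either alone enzalutamide library (0.126, 0.0759 and 0.0581).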

How the data were processed

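RNA sequencing of 12 LNCaP libraries, 6 groups of 2, was used from 1 table. The values are RPKM per gene, deposited by the authors, and the formula and gene lengths behind them are not stated. Per the labels' protocols, total RNA was taken with Trizol and libraries were made with a NEBNext Ultra kit. The submitters' processing notes name HISAT2, HTSeq, DESeq2, hg19 and mm10 without roles. The LNCaP table held 44591 names, of which 27 that a spreadsheet had turned into dates were left out. Library depths were recovered from the whole-read steps of the RPKM values (tolerance 0.02), which gave whole reads for at least 99.9% of the RPKM. The fibroblast libraries, in another table, were not used.

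Values were tested as log2(RPKM + 1) with limma 3.58.1 (R 4.3.3, eBayes with trend) in 1 fit over the 6 groups, with 6 residual degrees of freedom, 12 comparisons and Benjamini-Hochberg adjustment over 16042 genes at 1 RPKM or more in at least 2 libraries. The test was tried on simulated data first. Named genes were, in each role, the members with the largest and smallest difference in enzalutamide alone, those not called or called against the rest, the 3 with the smallest p in each direction elsewhere, and other members by value. 1 gene that this rule names is not reported here. Alternatives were a pseudocount of 0.1, the replicate number as a block, no filter, only the groups compared, scaling by the median of ratios, and each library left out. The members and lists were chosen with earlier results of these data known. Promoter sequences are RefSeq's on GRCh38.p14, matched by symbol, and were not joined to coordinates of another build.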

Additional observations from a re-analysis of the deposited data

Results flagged for a closer look

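The difference between the enzalutamide effects of 2 growth settings was itself tested with limma, and these results passed that test. Between CCAFs and cells alone, 34 of 44 members passed, all upward, where 4.56% of all genes passed upward and 2.45% downward, with RRM2 at 1.76, MCM4 at 1.11 and PCNA at 0.89 on the log2 scale. Between CRPCCAFs and cells alone, 3 of 44 members passed, POLE at -0.39, RRM1 at 0.37 and PRIM1 at 0.43, a share near that of all genes (3.33% downward and 3.68% upward). PRIM1 lost its call in 5 of 8 fits with 1 library left out, and POLE in 3 of 8. Between CRPCCAFs and CCAFs, 34 members passed, all downward, where 4.07% of all genes passed downward and 2.38% upward, with RRM2 at -1.99, CDC6 at -1.55 and MCM4 at -1.03. These tests share libraries, and no group was large enough for a check of single libraries that stand apart.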

How the results depend on the processing

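The counts of members called in the 3 enzalutamide comparisons were 43, 44 and 44 and stayed at 43 or 44 under every alternative run. With CCAFs under DMSO the count of 1 became 2 when only the groups compared were fitted, and 0 to 1 with 1 library left out. CRPCCAFs under DMSO gave 21 to 28 of 36 with 1 library left out, and CRPCCAFs against CCAFs under DMSO 10 to 17 of 23. The other counts stayed within 1.5 times of their value. The sign turned for some members that did not pass. GINS2 with CRPCCAFs under enzalutamide was -0.0147 under median-of-ratios scaling and -0.0399 to 0.0437 with 1 library left out, CCNE1 with CRPCCAFs under DMSO was -0.00815 to 0.0851, and CCNE1 in the difference between CRPCCAFs and CCAFs -0.0377 to 0.113. Of 100 results for single genes, 87 kept their direction and side of the threshold under all alternatives. In the coculture comparisons under DMSO, fewer of all genes were called too with 1 library left out. The cause of these changes was not tested.

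Over all genes, counts moved by more than 1.5 times in 7 comparisons. When only the groups compared were fitted, CRPCCAFs under DMSO had 3111 instead of 4905 genes, CRPCCAFs against CCAFs under DMSO 726 instead of 2156, and the difference between CRPCCAFs and cells alone 654 instead of 1125. With 1 library left out, the lowest counts were 640 of 1518 for CCAFs under DMSO, 827 of 2156 for CRPCCAFs against CCAFs under DMSO, 1673 of 3107 for CCAFs under enzalutamide, and 627 of 1125, 559 of 1125 and 582 of 1034 for the differences of CCAFs and of CRPCCAFs from cells alone and of CRPCCAFs from CCAFs.

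Same-numbered libraries did not deviate together (r from -0.0617 to 0.0840 over 15 pairs of groups), so the numbers were not taken as pairs. With the replicate number as a block, the 12 counts of members, in the order of the 3 enzalutamide effects, the coculture comparisons under DMSO and under enzalutamide, and the differences of effects, were 43, 44, 44, 1, 37, 22, 40, 28, 43, 34, 3 and 33. Scaling moved the median of all genes by at most 0.05 on the log2 scale. With 2 libraries a group, the fits that leave 1 out take the spread of the lone library to be that of the rest.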
